A study of Macaca mulatta with 17 samples.

Results

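MHC class I antigen processing genes encode the machinery that turns cellular proteins into short peptides and places them on class I molecules at the cell surface. The group described here was a list of 10 genes: B2M, TAP1, TAP2, TAPBP, PSMB8, PSMB9, PSMB10, PSME1, PSME2 and ERAP1. A gene was found by its symbol in the description of a non-control probe on the array, and where a gene had more than one probe, the brightest on average across the arrays stood for it. By this rule 8 of the 10 genes had a probe, out of 17149 named genes and 20217 probes on the array, and PSME2 and ERAP1 had none under those names.

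Fetal uteri of rhesus macaques (Macaca mulatta) were profiled at 2 ages and after exposure to bisphenol A (BPA), a plastic monomer with estrogenic activity. All fetuses were female, each gave 1 array, and the 17 arrays formed 4 groups. GD100 control (n = 5) and GD100 BPA (n = 5) uteri were taken at gestational day 100 after delivery by cesarean section, from dams given vehicle (ethanol) or deuterated BPA in a daily fruit treat from day 50. GD165 control (n = 4) and GD165 BPA (n = 3) uteri were taken near term after vaginal delivery, from dams dosed in the same way from day 100. The BPA dose was 400 µg/kg per day at both ages and 0 in controls. Stillborn animals were not on the arrays, newborns were euthanized within a day of birth, and age cannot be told apart from the mode of delivery or from the time after birth. The tissue was one sagittal side of the whole uterus, so each array is a mixture of muscle, stroma, epithelium, vessels and blood.

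Class I molecules consist of a heavy chain and an invariant light chain, beta-2-microglobulin. The peptides they carry are cut by the proteasome, a barrel-shaped protease whose constitutive catalytic subunits can be replaced by inducible ones, which gives the immunoproteasome. The TAP transporter moves the peptides into the endoplasmic reticulum, where tapasin and other chaperones load them and aminopeptidases trim them. Interferon gamma, acting in part through IRF1, is the classical inducer of these genes, and most nucleated cells express them at a lower level without it.

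The values depend on which part of each transcript the probe reads, and the first 30 bases of the 60-base probes that matter most are therefore shown, 5′ to 3′, as the scanner files give them. B2M and PSMB9 are the 2 genes that passed the test at both exposures, TAPBP has 3 probes that can be compared with each other, and the 2 probes of TAP2 are shown because neither gave a usable signal. No base is marked, since no motif was searched in these probes.
B2M: ttggtcagatctgagctcttcaatctcttg
PSMB9: ttctatgatgagtgaaccttccccagactt
TAPBP, probe used: cgcagctcagggatctccgagtcaggactg
TAPBP, transcript variant 3: ctcggggcgtagcgctgaggtcaccctgga
TAPBP, transcript variant 2: tctgtatctttcccttgtcactttatctcc
TAP2, probe used: accttccaccaggccatgaacacctgggtg
TAP2, transcript variant 2: agtcaccactgagaaagaattaaaccagta
The 3 TAPBP probes read separate sequence, with a longest shared run of 6 bases over their full length, and the 2 TAP2 probes shared at most 5. The GC content of the 60 bases was 41.7% for B2M and 35% for PSMB9, and 60%, 68.3% and 45% for the TAPBP probes in the order shown.

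Between 83.8 and 89.0% of the spots on an array were well above background, and 7 of the 8 genes were well above background on all 17 arrays with no saturated array. Of 11 uterus and Müllerian duct markers, 9 were well above background on all arrays, among them HOXA10, HOXA11 and EMX2. The progesterone receptor probe (PGR) reached that level on 3 of 17 and the HAND2 probe on 9 of 17. Some arrays also carried signal of skeletal muscle markers, and whether it came from other tissue was not tested. The mean log2 level of 5 skeletal muscle markers was 4.18 to 7.73 at GD100 and 6.42 to 13.29 at GD165, and was highest in GD165 control replicate 5 (13.29) and GD165 BPA replicate 5 (12.64). The members that passed are given with and without them.

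All levels below are log2 processed signals scaled to a common 75th percentile. Levels of different probes are not comparable with each other, and only differences between groups are read. A difference is a log2 fold change from limma fitted to all 17 arrays, with its standard error (SE), 95% interval and p value with Benjamini-Hochberg adjustment across every probe. A gene passed the test at an adjusted p below 0.01. In bulk tissue, more cells that express a gene and more RNA per cell cannot be told apart.

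In control uteri, 3 of the 8 genes with a probe were higher at GD165 than at GD100: B2M, TAPBP and PSMB9. None was lower. Over all probes 11.5% passed this test, 6.32% as higher and 5.2% as lower at GD165. The median log2 fold change was 0.67 over the 7 genes detected on all arrays, 0.56 with TAP2 included at its measured value, and 0.00 over all probes. The rises that passed were 1.59-fold to 1.78-fold, and the estimates for PSMB10 and PSME1 were within 0.17 of 0.

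**Figure D1:**
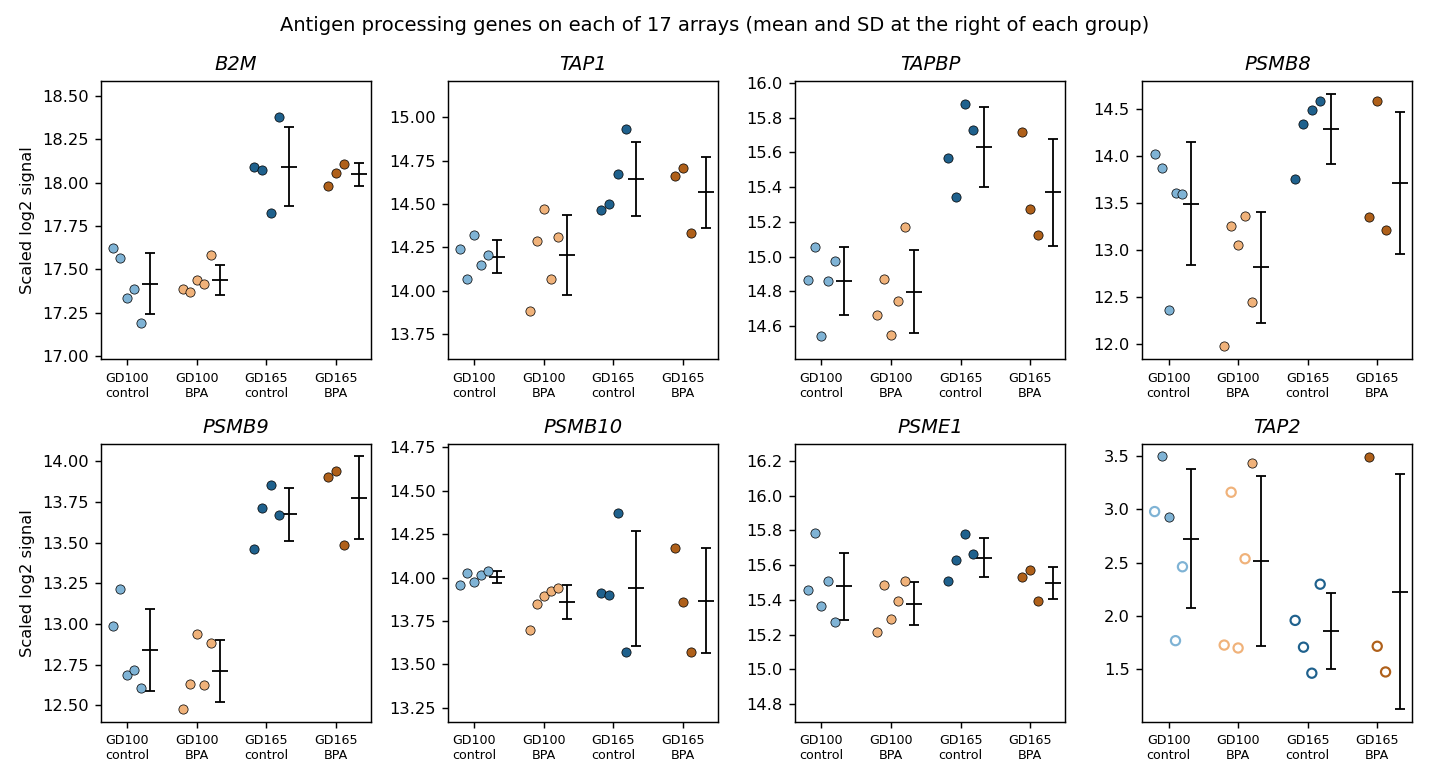
Scaled log2 signal of the 8 genes with a probe on each of the 17 arrays, by group, with the mean and SD of each group to the right of its points; open points are not well above background, and each panel has its own axis. The GD165 controls lie above every GD100 control for B2M, TAP1, TAPBP and PSMB9, whereas PSMB10 and PSME1 overlap and TAP2 is mostly at background.

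The light chain was the first of these. B2M encodes beta-2-microglobulin, without which class I heavy chains do not reach the surface. Its levels were 17.62, 17.56, 17.33, 17.39 and 17.19 in GD100 controls and 18.09, 18.07, 17.82 and 18.38 in GD165 controls. In the BPA groups they were 17.39, 17.37, 17.44, 17.41 and 17.58 at GD100 and 17.98, 18.06 and 18.11 at GD165. All 7 GD165 arrays lay above all 10 GD100 arrays. The rise with age was 0.67 (SE 0.11, 95% interval 0.44 to 0.90, adjusted p = 0.000526), or 1.59-fold, in controls. In BPA-exposed uteri, which share no array with the controls, it was 0.61 (SE 0.12, interval 0.36 to 0.86, adjusted p = 0.0026). Within single slides the difference in controls was 0.74 on slide 3 and 0.90 on slide 5, and that in BPA-exposed uteri was 0.52 on slide 2. Each within-slide age difference, here and for the genes below, sets 1 fetus against 1 fetus. With slide as a fixed block in limma both rises still passed, at 0.83 (adjusted p = 0.00099) and 0.69 (adjusted p = 0.0073). The call in BPA-exposed uteri was lost in limma without GD165 BPA replicate 4 (0.60, adjusted p = 0.0130) or replicate 5 (0.58, adjusted p = 0.0136).

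Of the inducible proteasome subunits, PSMB9 passed and PSMB8 and PSMB10 did not. PSMB9 (LMP2), PSMB8 (LMP7) and PSMB10 (MECL1) replace the constitutive subunits PSMB6, PSMB5 and PSMB7 when the immunoproteasome is assembled. PSMB9 measured 12.99, 13.22, 12.69, 12.72 and 12.61 in GD100 controls and 13.46, 13.71, 13.85 and 13.67 in GD165 controls. It measured 12.48, 12.63, 12.94, 12.63 and 12.88 in GD100 BPA and 13.90, 13.94 and 13.48 in GD165 BPA uteri. Again no GD165 array fell within the range of the GD100 arrays. The rise was 0.83 in controls (SE 0.14, interval 0.53 to 1.14, adjusted p = 0.000858), or 1.78-fold, and 1.07 in BPA-exposed uteri (SE 0.16, interval 0.73 to 1.40, adjusted p = 0.000386), or 2.09-fold. The difference between these 2 rises was 0.23 (interval -0.22 to 0.69, adjusted p = 0.84), so a larger rise after exposure was not shown. Within slides the rise was 1.03 on slide 3 and 0.86 on slide 5 in controls, and 0.60 on slide 2 in BPA-exposed uteri. With slide as a fixed block in limma the rises were 0.87 (adjusted p = 0.0144) and 1.04 (adjusted p = 0.0162), of the same size but past 0.01 in neither.

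PSMB8 had the widest spread of the 7 detected genes. Its levels were 14.03, 13.87, 12.36, 13.60 and 13.59 in GD100 controls, 11.97, 13.26, 13.05, 13.36 and 12.45 in GD100 BPA, 13.75, 14.34, 14.49 and 14.58 in GD165 controls, and 13.35, 14.58 and 13.21 in GD165 BPA uteri. The pooled SD within groups was 0.60, larger than that of 94.0% of the probes detected on all arrays, whose median was 0.21. The age difference was 0.80 in controls (SE 0.38, adjusted p = 0.153) and 0.90 in BPA-exposed uteri (interval 0.02 to 1.77, adjusted p = 0.136). Neither passed the test, and the groups overlapped. Within slides it was 1.97 on slide 3 and 0.16 on slide 5 in controls and 0.77 on slide 2 in BPA-exposed uteri, and without GD100 control replicate 3 it was 0.52 in controls (adjusted p = 0.323 in limma). The lowest GD100 control (12.36) and the lowest GD100 BPA array (11.97) both lay on slide 3, whose GD165 control array read 14.34.

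PSMB10 did not pass in either age comparison. GD100 controls spanned 13.95 to 14.04 and GD165 controls 13.57 to 14.37. The log2 fold change was -0.06 (interval -0.36 to 0.23, adjusted p = 0.80) in controls and 0.01 (interval -0.31 to 0.33, adjusted p = 0.98) in BPA-exposed uteri. The interval in controls ends below the estimate for PSMB9, a gene of the same particle. The GD165 groups were more scattered, with SDs of 0.33 and 0.30 against 0.04 and 0.10 at GD100. Without the 2 GD165 arrays richest in skeletal muscle markers the estimates were -0.21 in controls and 0.16 in BPA-exposed uteri, and neither passed.

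The inducible subunits can also be read against their constitutive partners on the same array, which removes any scaling of the array. This description was chosen after the values were seen and was not tested. The log2 ratio of PSMB9 to PSMB6, set to a mean of 0 in GD100 controls, had a mean of 0.80 ± 0.14 (SD, n = 4) in the GD165 control group. It was 0.86 ± 0.12 (SD, n = 3) in GD165 BPA uteri and -0.12 ± 0.21 (SD, n = 5) in GD100 BPA uteri. Its values ran from -0.32 to 0.43 on the GD100 arrays and from 0.65 to 1.01 on the GD165 arrays. For PSMB8 over PSMB5 the GD165 control group averaged 0.96 ± 0.38 (SD, n = 4) and the GD165 BPA group 0.50 ± 0.73 (SD, n = 3), with ranges that overlapped those at GD100. No probe was named PSMB7, so PSMB10 has no such ratio here.

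**Figure D2:**
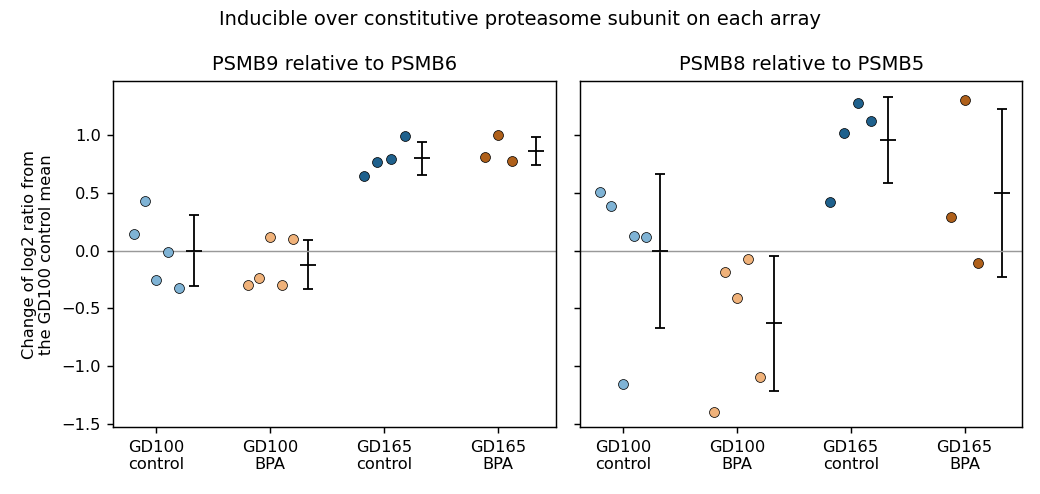
Change in the log2 ratio of an inducible proteasome subunit to its constitutive partner on each array, relative to the mean of GD100 controls (zero line), with group mean and SD. For PSMB9 over PSMB6 every GD165 array (0.65 to 1.01) lies above every GD100 array (-0.32 to 0.43), whereas for PSMB8 over PSMB5 the groups overlap.

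PSME1 encodes the alpha subunit of PA28, a cap that opens the proteasome and is itself inducible. GD100 controls measured 15.46, 15.78, 15.36, 15.51 and 15.27 and GD165 controls 15.51, 15.63, 15.78 and 15.66. The groups overlapped, and the log2 fold change was 0.17 (interval -0.05 to 0.38, adjusted p = 0.287) in controls and 0.12 (interval -0.12 to 0.36, adjusted p = 0.486) in BPA-exposed uteri. Its partner PSME2 had no probe under that name.

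Neither transporter gene passed the test, and TAP2 could not be read. TAP1 and TAP2 form the peptide transporter as a heterodimer. TAP1 measured 14.24, 14.07, 14.32, 14.15 and 14.20 in GD100 controls and 14.47, 14.50, 14.67 and 14.93 in GD165 controls. The control groups did not overlap, and the log2 fold change was 0.44 (SE 0.13, interval 0.17 to 0.72, adjusted p = 0.0219). In BPA-exposed uteri the levels were 13.88, 14.29, 14.47, 14.07 and 14.31 at GD100 and 14.66, 14.71 and 14.33 at GD165. Those groups overlapped, with a log2 fold change of 0.36 (interval 0.07 to 0.66, adjusted p = 0.0776). The within-slide differences were smaller than the pooled ones, at 0.18 and 0.26 on slides 3 and 5 in controls and 0.02 on slide 2 in BPA-exposed uteri.

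TAP2 was not well above background on 13 of 17 arrays with the probe used, and on all 17 with the other probe. The probe used was above background on 2 of 5 GD100 control arrays (3.50 and 2.93), 1 of 5 GD100 BPA arrays (3.43), 0 of 4 GD165 control arrays and 1 of 3 GD165 BPA arrays (3.49). No fold change is therefore given. Why these probes read so low was not tested. In the macaque reference TAP2 lies next to PSMB8, PSMB9 and TAP1 in the MHC, and all of these neighbours were detected on every array.

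TAPBP encodes tapasin, which bridges the TAP transporter and the class I heavy chain. With the probe used its levels were 14.86, 15.06, 14.54, 14.86 and 14.98 in GD100 controls and 15.57, 15.34, 15.88 and 15.73 in GD165 controls. The rise in controls was 0.77 (SE 0.16, interval 0.44 to 1.10, adjusted p = 0.0026), or 1.70-fold, and within slides it was 0.80 on slide 3 and 0.59 on slide 5. It was 0.66 with slide as a fixed block in limma (adjusted p = 0.0244) and 0.74 without GD165 control replicate 6 (adjusted p = 0.0106). In BPA-exposed uteri the levels were 14.66, 14.87, 14.55, 14.74 and 15.17 at GD100 and 15.71, 15.27 and 15.12 at GD165. The difference there was 0.57 (interval 0.21 to 0.93, adjusted p = 0.0267) and the groups overlapped, with -0.04 within slide 2.

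The other 2 TAPBP probes disagreed in size. The probe for transcript variant 3 gave 0.48 in controls (adjusted p = 0.0107) and 0.54 in BPA-exposed uteri (adjusted p = 0.0096). The probe for transcript variant 2, the dimmest of the 3, gave 0.15 (adjusted p = 0.327) and 0.41 (adjusted p = 0.0192). All 6 estimates were positive, but which comparison passed depended on the probe. The names come from the array design, and whether the probes read different transcripts was not tested.

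In BPA-exposed uteri, 2 of the 8 genes, B2M and PSMB9, were higher at GD165 than at GD100, and none was lower. The share over all probes was 9.68%, with 4.82% higher and 4.86% lower at GD165. The median over the 7 detected genes was 0.57, and over all probes -0.05. Counted by separation alone, 4 of 8 genes in controls (B2M, TAP1, TAPBP and PSMB9) and 2 of 8 in BPA-exposed uteri (B2M and PSMB9) had every GD165 array above every GD100 array. Over all probes 9.51% did so in controls and 11.7% in BPA-exposed uteri. The estimates had the same sign in both comparisons for 6 of the 7 detected genes, with PSMB10 near 0 in each.

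**Figure D3:**
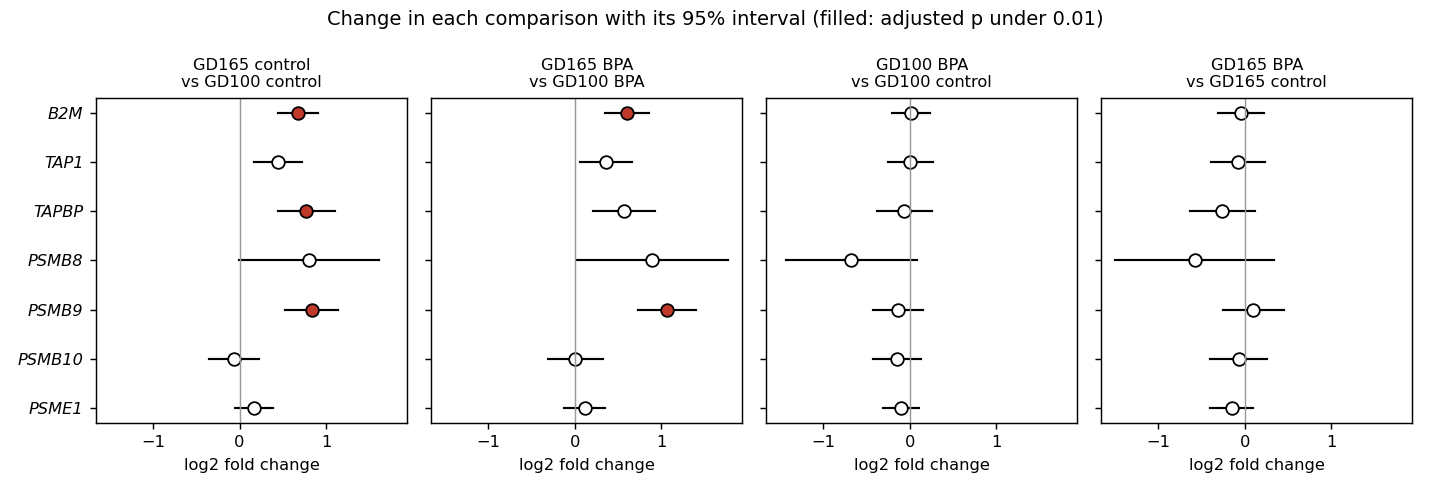
Log2 fold change of the 7 genes detected on all arrays in 4 comparisons, with 95% intervals; filled points passed an adjusted p of 0.01. B2M and PSMB9 are filled in both age comparisons and TAPBP in that of controls, and every interval of the comparisons of BPA with control includes 0.

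BPA exposure was compared with control within each age. None of the 8 genes passed at GD100 or at GD165 in limma, 0% of all probes passed either comparison, and 0 of the 8 had an unadjusted p below 0.05. At GD100, where 3.79% of all probes had an unadjusted p below 0.05, the estimates of the 7 detected genes ran from -0.67 for PSMB8 (interval -1.43 to 0.08) to 0.02 for B2M (interval -0.20 to 0.24). At GD165, where that share was 8.61%, they ran from -0.58 for PSMB8 (interval -1.49 to 0.34) to 0.10 for PSMB9 (interval -0.25 to 0.45). The B2M intervals leave room for a change of at most 0.24 upwards or 0.31 downwards at either age. For TAPBP the GD165 estimate was -0.26 (interval -0.64 to 0.12), and for PSME1 it was -0.15 (interval -0.39 to 0.10). Within slides the PSMB8 difference was -0.76, -1.42 and -0.39 on slides 1, 2 and 3 at GD100 and 0.21 on slide 5 at GD165. Each group had only 1 or 2 fetuses on such a slide.

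One gene separated without passing. The 5 GD100 BPA arrays read 13.70, 13.85, 13.89, 13.92 and 13.94 for PSMB10, all below the 5 GD100 controls at 13.95, 14.03, 13.97, 14.02 and 14.04. The difference was -0.14 (interval -0.42 to 0.13, adjusted p = 0.9999), and 0.401% of all probes separated in this direction. The within-slide values were -0.09, -0.08 and -0.28. At GD165 the PSMB10 groups overlapped, with a difference of -0.07 (interval -0.41 to 0.26).

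The test of whether the BPA difference changed with age found none of the 8 genes, and 0% of all probes, past the threshold. The estimates of the detected genes ran from -0.20 for TAPBP (interval -0.69 to 0.29) to 0.23 for PSMB9, and the interval for PSMB8 was -1.09 to 1.28.

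Class I heavy chains are the molecules that the members serve. They form a family of near-identical copies that varies between animals, and the probes carry human names, so a probe may read several macaque genes. Of 18 names listed, 9 had a probe and all 9 estimates were positive in both age comparisons. HLA-E passed in both and HLA-F in controls. The HLA-E probe measured 13.92, 14.16, 13.87, 13.90 and 13.88 in GD100 controls and 15.43, 15.07, 14.79 and 15.60 in GD165 controls, a rise of 1.27 (SE 0.16, adjusted p = 8.7e-05). In BPA-exposed uteri it rose by 1.16 (SE 0.18, adjusted p = 0.000497). HLA-F rose by 1.27 in controls (adjusted p = 0.0037) and differed by 0.91 in BPA-exposed uteri (adjusted p = 0.0391). The HLA-F call in controls changed when single arrays were left out, with adjusted p between 0.0015 and 0.0163 in limma.

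HLA-B and HLA-G did not pass in either comparison. HLA-B ranged from 9.93 to 15.51 over the 17 arrays, with differences of 1.07 (SE 1.11) and 1.89 (SE 1.21). HLA-G, in humans a gene of the maternal-fetal interface, gave 0.50 (adjusted p = 0.0706) and 0.12 (adjusted p = 0.729). The class I-like genes MR1, CD1D, HFE and FCGRT, whose products present metabolites or lipids or bind other ligands, lay between 0.09 and 0.45 in controls and between 0.05 and 0.36 in BPA-exposed uteri.

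No other proteasome gene listed passed with age. None of 5 constitutive catalytic and activator genes, 11 other core subunits and 14 subunits of the regulatory particle passed in either age comparison. Their medians in controls were -0.12, -0.02 and -0.08, and in BPA-exposed uteri 0.05, -0.06 and -0.07. PSMB6, the subunit that PSMB9 replaces, differed by 0.03 (interval -0.17 to 0.23) in controls and 0.08 (interval -0.13 to 0.30) in BPA-exposed uteri. PSMB5, the partner of PSMB8, differed by -0.16 (adjusted p = 0.131) and -0.23 (adjusted p = 0.0454), and PSME3, a nuclear activator, by -0.10 and 0.05.

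Among 5 other loading and trimming genes, none passed in controls, where their median was 0.13. Calreticulin (CALR), a chaperone of the loading complex, was the exception in BPA-exposed uteri, where it fell by 0.46 (adjusted p = 0.0089) against -0.22 (adjusted p = 0.135) in controls. Of 5 cytosolic peptidases, LAP3 (leucine aminopeptidase) alone passed, with a rise of 0.49 in BPA-exposed uteri (adjusted p = 0.0058). Its difference in controls was 0.21 and did not pass (adjusted p = 0.168). CALR and LAP3 were named after their values were seen.

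**Figure D4:**
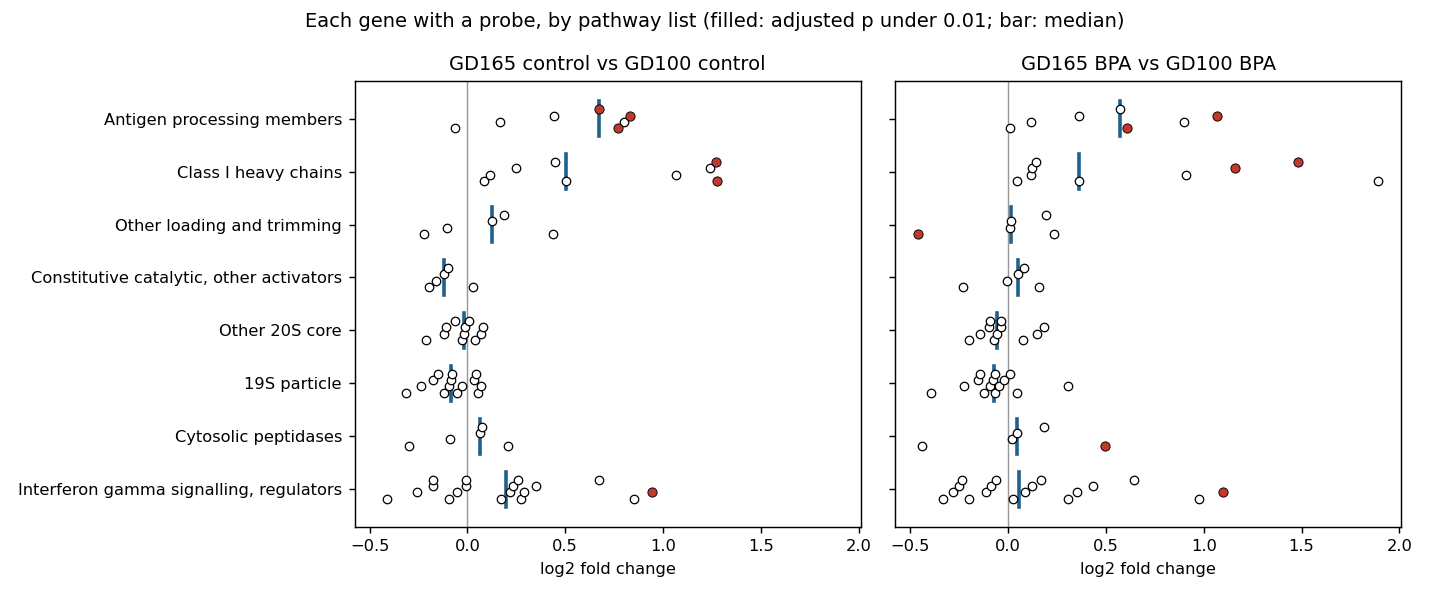
Log2 fold change with age of every gene with a probe, by pathway list, in controls (left) and BPA-exposed uteri (right); filled points passed an adjusted p of 0.01, bars mark medians, and TAP2 is left out because it was mostly at background. The antigen processing and heavy chain lists extend to the right of 0, whereas the constitutive, core and 19S proteasome genes lie around it.

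Of 18 interferon gamma signalling and class I regulator genes, 1 passed in each age comparison, and it was IRF1 both times. IRF1, a transcription factor that interferon gamma induces and that drives TAP1 and PSMB9, measured 11.58, 11.67, 11.26, 11.44 and 11.33 in GD100 controls and 12.32, 12.13, 12.57 and 12.59 in GD165 controls. It rose by 0.94 in controls (SE 0.11, adjusted p = 4.89e-05) and by 1.10 in BPA-exposed uteri (SE 0.12, adjusted p = 7.16e-05). IFNG itself differed by 0.26 (interval -0.30 to 0.82) in controls and -0.25 (interval -0.86 to 0.36) in BPA-exposed uteri. The medians of the list were 0.20 and 0.05.

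A few probes carry names that the reference tables used here do not pair with a current symbol, and they stay outside all counts. ARTS-1, LRAP and NOD27 may be older names of ERAP1, ERAP2 and NLRC5, which was not settled here, so their values may belong to a listed member and to a class I regulator. NOD27, a NOD-like receptor, measured 7.61 to 8.27 in GD100 controls and 9.19 to 9.76 in GD165 controls. Its difference with age was 1.54 in controls (SE 0.17, adjusted p = 2.83e-05) and 1.27 in BPA-exposed uteri (SE 0.18, adjusted p = 0.000345). ARTS-1, an aminopeptidase regulator by its description, was close to background, with levels of 2.83 to 4.95, and differed by -0.09 (interval -0.90 to 0.72) in controls. LRAP, a leukocyte-derived aminopeptidase, differed by 0.13 (SE 0.79) in controls and 1.71 (SE 0.86) in BPA-exposed uteri. A further probe, described only as a rhesus cDNA, may read PSME2, which was not settled either. It differed by -0.09 (interval -0.33 to 0.15) in controls and -0.04 (interval -0.30 to 0.22) in BPA-exposed uteri, and its groups overlapped. These 4 probes were chosen after their values were seen.

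Leukocytes are rich in class I molecules, and some of their markers passed with age. Of 18 leukocyte markers, 4 passed as higher at GD165 in each age comparison, against 6.32% of all probes in controls and 4.82% in BPA-exposed uteri, and the other 14 did not pass. Their estimates were positive for 16 of 18 markers in controls and 13 of 18 in BPA-exposed uteri, with medians of 0.62 in controls and 0.29 in BPA-exposed uteri. In controls those with the smallest p were LYZ (lysozyme, 1.99, adjusted p = 9.96e-05), CD8A (a cytotoxic T cell coreceptor, 1.02, adjusted p = 0.000333) and GZMB (granzyme B, 1.78, adjusted p = 0.0041). The summed signal of the list was 42942 to 55557 in GD100 controls and 67277 to 82544 in GD165 controls. It was 49090 to 58011 in GD100 BPA and 56202 to 85945 in GD165 BPA uteri. CD3D and CD163 were not well above background on any array, whereas CD3E, CD14 and PTPRC were on all 17. The part of leukocytes in the rises of B2M, TAPBP and PSMB9 was not tested.

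Markers of other compartments were counted in the same way. In controls, where 6.32% of all probes passed as higher and 5.2% as lower, 1 of 9 endothelial, 4 of 7 epithelial and 3 of 7 smooth muscle markers passed as higher at GD165, and 1 of 4 stromal markers as lower. In BPA-exposed uteri, where these shares were 4.82% and 4.86%, 2 of 9, 2 of 7 and 1 of 7 passed as higher, and 0 of 4 stromal markers passed. The summed epithelial signal was 63459 to 102729 in GD100 controls and 145860 to 176919 in GD165 controls, and the endothelial sum 50020 to 80221 and 86547 to 149516. Of 5 erythroid markers with a probe, only HBB, the beta globin of blood, passed, with 6.46 in controls and 4.67 in BPA-exposed uteri. The other 4 estimates were negative in controls, and 3 of the 5 were negative in BPA-exposed uteri. The medians of the 5 were -0.05 in controls and -1.59 in BPA-exposed uteri. The part of these tissues in the members' rises was not tested. Without the 2 arrays in which skeletal muscle signal was highest, B2M rose by 0.76 and 0.58, PSMB9 by 0.77 and 1.21 and TAPBP by 0.69 in controls, and the same counts of 3 and 2 genes passed. The GD165 arrays that remained still had a mean log2 level of skeletal muscle markers of 6.42 to 10.02.

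Within groups, the 7 detected genes varied together loosely. After subtraction of the group means, 20 of the 21 pairs had a positive Pearson's r over the 17 arrays, with a median of 0.29, and all points share their array's scaling and cell mixture. PSMB9 and PSME1 were the closest pair (r = 0.75), followed by TAPBP with PSME1 (0.57), TAPBP with PSMB10 (0.51) and PSMB8 with PSMB9 (0.51). B2M and PSMB10 were the 1 negative pair (-0.61). GD100 BPA replicate 1 had 7 of 7 genes below the mean of its group and GD100 control replicate 3 had 6 of 7, and both arrays were on slide 3. GD165 control replicate 1 had 7 of 7 below its group mean as well, on slide 5. GD165 BPA replicate 5 had 6 of 7 below, on slide 2, where GD100 control replicate 2 and GD100 BPA replicate 5 each had 6 of 7 above.

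Of 15058 named probes detected on all arrays, those whose deviations from the group means were most like the mean over the 7 members were HOXB3 (r = 0.85), B4GALNT2 (0.84), LGALS9 (0.84), TM4SF11 (0.82) and FAM60A (0.82). These values describe the 17 arrays and were the highest of many. The mean was taken over unscaled deviations, so PSMB8 weighs most in it. Its pooled SD within groups was 0.60, against 0.14 to 0.24 for the other detected members. LGALS9, which encodes galectin-9, was also higher at GD165, by 0.72 in controls (adjusted p = 0.0029) and 0.71 in BPA-exposed uteri (adjusted p = 0.0063). TM4SF11 differed by 0.61 (adjusted p = 0.0011) and 0.55 (adjusted p = 0.0049). B4GALNT2 passed in controls alone, with 0.93 (adjusted p = 0.0036) against -0.33 in BPA-exposed uteri (adjusted p = 0.292). FAM60A, with 0.56 and 0.13, did not pass in either comparison. HOXB3, a positional homeobox gene, did not pass in either comparison, with 0.25 and 0.44.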

How the data were processed

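RNA from 17 fetal uteri, 1 animal per array, was hybridised by the authors as Cy3-labelled cRNA to 1-color Agilent rhesus arrays on 6 slides. The deposited intensity values are linear processed signals from Agilent Feature Extraction 9.5 (per the submitters' processing notes), which subtracts background, detrends and gives spots at background a surrogate value. The authors' table of all arrays held the same values (711467 of 711467 identical at a tolerance of 0). The values are signals, not counts, and the number of arrays limits their precision. The median signal to background ratio was 17.5 to 24.2 and the 75th percentile of signal 5524 to 7319.

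Spots marked as outliers (1 to 40 per array) and control spots were left out, each probe's 2 spots were averaged on the log2 scale, and each array's 75th percentile was subtracted (mean of 12.62 added back). limma 3.58.1 in R 4.3.3 was fitted to all 17 arrays in 4 groups, without other terms, and its tests were two-sided. The study's methods give an error-weighted analysis of variance in closed software at the same threshold of 0.01, for which limma stands in. The 2 differ in outcome. With its own analysis the study reported significant differences between BPA-exposed and control uteri at GD165 and minimal ones at GD100. With limma no probe passed in either comparison. For HOXC9, WNT2, WNT4, HOXA13 and SST at GD165 the study also reported real-time RT-PCR changes in the same direction as its arrays. The fit was tested on simulated arrays.

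The genes and lists were chosen with earlier results of these data known. Named genes were all members, the class I heavy chains, PSMB5, PSMB6, PSME3 and IRF1, up to 3 genes of each other list with the smallest p in controls, and the 5 likest genes. Listed names that no probe carried (PSME2, ERAP1, PSMB7 and NLRC5 among them) were not analysed here under those names, and some named genes are not reported here. Probes were named from the array's descriptions, updated through reference tables of the T2T-MMU8v2.0 assembly, which named 18744 probes. No coordinates are printed because the build of those in the files is not settled. Replicates are separate fetuses. Alternatives covered background correction, scaling, dim probes, outlier spots, the authors' table, samples in the fit, prior, weights, slide, replicate number, threshold, probe choice and each array left out. Leaving out the 2 arrays richest in skeletal muscle markers was added after seeing the data. Same-numbered samples of different groups correlated at -0.17 to 0.16 over 19 pairs, 3 of them over 0.1.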

Additional observations from a re-analysis of the deposited data

Results flagged for a closer look

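1 result was far from the others of its group among 21 sets of 4 or 5 arrays examined for the 7 detected genes, of which chance would mark about 1. PSMB8 read 12.36 in GD100 control replicate 3, the nearest other control was 13.59 and the highest 14.03, and this gap was 0.738 of the range of the group. The difference of PSMB8 with age did not pass with this array (0.80) or without it (0.52, adjusted p = 0.323 in limma).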

How the results depend on the processing

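The counts of members past the threshold (3 with age in controls, 2 in BPA-exposed uteri, 0 in the 3 other comparisons) moved by over 1.5 times in few settings. With slide as a fixed block both age counts fell to 1, B2M. Over the arrays left out in turn the count was 2 to 3 in controls and 1 to 2 in BPA-exposed uteri, where leaving out GD165 BPA replicate 4 or 5 left PSMB9. The sample numbers do not pair the animals, and the replicate block gave 0 members in controls, with adjusted p of 0.0122 for B2M, 0.0277 for TAPBP and 0.0141 for PSMB9, and 2 in BPA-exposed uteri. No age difference of a gene that passed changed sign under any of the alternatives run. Over all probes the counts ran below the main 2328 and 1956 by more than 1.5 times when the fit held just 2 groups (1172 and 1176), slide as a fixed block (1233 and 512), without scaling in controls (1531), under the replicate block in controls (958) and, in BPA-exposed uteri, without the arrays richest in skeletal muscle markers (1245). Without GD165 control replicate 6 the count in controls was 1512, and without GD165 BPA replicate 4 or 5 that in BPA-exposed uteri was 994 or 1181. Without scaling the median of all probes moved to 0.13 in BPA-exposed uteri with age and to 0.14 for BPA at GD165.

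Signs that changed belong to estimates that did not pass in either setting. Without scaling, BPA against control turned to -0.020 (B2M) and -0.03 (TAP1) at GD100 and to 0.12 (B2M), 0.086 (TAP1), 0.089 (PSMB10) and 0.014 (PSME1) at GD165, and the difference of these effects to 0.14 (B2M), 0.12 (TAP1), 0.0017 (TAPBP) and 0.15 (PSME1). With arrays scaled to their medians B2M and TAP1 at GD100 were -0.011 and -0.024 and the difference for PSME1 0.011. Quantile normalization gave B2M 0.035 at GD165 and 0.020 for the difference. Slide as a fixed block gave -0.0072 (B2M) and -0.011 (TAP1) at GD100, 0.021 for the PSME1 difference and -0.14 for PSMB10 with age in BPA-exposed uteri, where the random block gave -0.026. The replicate block gave 0.088 for B2M at GD165, differences of 0.068 (B2M), -0.089 (PSMB8) and -0.10 (PSMB10), and PSMB10 with age 0.072 in controls and -0.033 in BPA-exposed uteri. The mean over all probes of TAPBP gave a difference of 0.039, and normexp gave HLA-G with age -0.014 in BPA-exposed uteri. Without the 2 arrays richest in skeletal muscle markers TAP1 was 0.053 and PSMB10 0.22 at GD165, and the differences were 0.046 (TAP1), 0.0087 (TAPBP) and 0.050 (PSME1).

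Leaving out 1 array at a time gave these ranges. For BPA against control at GD100 they were -0.037 to 0.070 (B2M), -0.060 to 0.087 (TAP1) and -0.15 to 0.0021 (TAPBP). At GD165 they were -0.13 to 0.051 (B2M), -0.14 to 0.043 (TAP1) and -0.22 to 0.078 (PSMB10). For the difference of these effects they were -0.15 to 0.031 (B2M), -0.16 to 0.036 (TAP1), -0.34 to 0.38 (PSMB8), -0.080 to 0.22 (PSMB10) and -0.12 to 0.0051 (PSME1). With age PSMB10 ran from -0.21 to 0.058 in controls and -0.14 to 0.16 in BPA-exposed uteri, and HLA-G from -0.015 to 0.22 in BPA-exposed uteri. Causes were not tested. The number of arrays, 3 in the GD165 BPA group, limits the precision. Signal limits TAP2, whereas the 7 other members with a probe were well above background on all arrays.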
